A study of Homo sapiens with 7 samples.

Results

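The regions described are those the authors' annotation assigns to ERG, FLI1, ETV1 and ETV6, genes of the ETS transcription factor family. They are 19 of the 8815 regions of accessible chromatin listed as changed in Kasumi-1 cells after PHF19 silencing. The regions were chosen by their nearest-gene symbol from lists that hold only regions past the authors' own test, so their folds, group means and false discovery rates (FDR) are a description and are not tested again. ETV1 had 10 of them, ERG 5, FLI1 2 and ETV6 2. All 19 were on the list of regions more accessible in the knockdown, and none was on the list of less accessible regions. Of 52675 regions tested by the authors, 8615 (16.4%) were listed as increased and 200 (0.38%) as decreased. Because the same contrast chose the regions, nothing is read from their direction.

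Accessibility was measured by ATAC-seq, which marks open chromatin by the insertion of sequencing adapters by a transposase. The knockdown group comprised 3 libraries of Kasumi-1 cells carrying a lentiviral shRNA against PHF19 (shPHF19), and the control group 4 libraries of the same line carrying a scrambled shRNA. Both groups were selected with puromycin (2 µg/ml, added 48 hours after the shRNA, for at least 24 hours), and each library came from 10000 cells. Kasumi-1 is an acute myeloid leukaemia line with the fusion gene RUNX1-RUNX1T1, and PHF19 is an accessory subunit of the Polycomb repressive complex PRC2. It is a single line, and the labels do not say whether libraries came from separate cultures or how many shRNA sequences were used. All read means, log2 folds (shPHF19 over Control) and FDR values given here come from the authors' deposited tables. Only group means are listed, without a spread between libraries, and regions that did not pass their test are not analysed here. The depth of each library is unknown, and neither the identity of the cells nor the level of PHF19 could be checked.

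ETS factors share a winged helix-turn-helix domain that recognises a GGAA core in DNA. ERG and FLI1 are close relatives that act in blood stem cells and megakaryocytes with RUNX1, GATA2, TAL1, LYL1 and LMO2, and in RUNX1-RUNX1T1 leukaemia they occupy many of the sites bound by the fusion. ETV1 belongs to the PEA3 group, activators that are controlled by ERK signalling and are known from prostate cancer and from KIT-driven gastrointestinal stromal tumours. ETV6 is a repressor needed for adult bone marrow haematopoiesis, and it is fused to RUNX1 in childhood lymphoblastic leukaemia.

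ETV1 and ETV6 each had a listed region at the upstream start of the gene, and the sequence of these starts is shown with the GGAA cores that ETS factors recognise. The windows are RefSeq promoter windows of GRCh38.p14, from 250 bases before to 50 after the start, given 5′ to 3′ on the strand of the gene. Capitals mark GGAA, or TTCC where the core lies on the other strand. The ETV1 window is that of the most upstream of 6 starts in the RefSeq table (chromosome 7, 13991376 to 13991675, minus strand), and the ETV6 window that of its single start (chromosome 12, 11649424 to 11649723, plus strand).
ETV1: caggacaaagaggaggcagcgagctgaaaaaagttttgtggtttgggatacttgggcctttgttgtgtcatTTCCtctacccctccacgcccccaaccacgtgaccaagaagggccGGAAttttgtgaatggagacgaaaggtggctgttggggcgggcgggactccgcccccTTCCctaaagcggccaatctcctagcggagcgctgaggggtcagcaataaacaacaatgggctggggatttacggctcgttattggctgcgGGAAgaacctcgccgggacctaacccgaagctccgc
ETV6: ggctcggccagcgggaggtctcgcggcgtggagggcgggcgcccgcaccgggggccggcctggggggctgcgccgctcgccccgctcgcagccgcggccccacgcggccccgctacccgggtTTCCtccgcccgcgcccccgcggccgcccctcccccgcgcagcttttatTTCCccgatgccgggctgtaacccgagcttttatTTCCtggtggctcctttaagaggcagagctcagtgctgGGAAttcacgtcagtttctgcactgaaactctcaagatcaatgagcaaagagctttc

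Each of these windows held 4 GGAA cores. In ETV1 the first bases of the cores lay at −179, −134, −77 and 15 from the start, and in ETV6 at −128, −79, −45 and −7. A GGAA core on either strand was found in 95.5% of 35116 RefSeq promoter windows, with a median of 3 per window (interquartile range 2 to 5), so 4 is within the usual range. The longer ETS motif CCGGAAGT, which contains the core, was in neither window and in 4.14% of all windows. ETV1 also held the RUNX motif TGTGGT at −214 (13.1% of all windows hold it) and the E-box CACGTG at −153 (7.26%). The other motifs searched on both strands, the RUNX motif TGCGGT, the GATA motifs AGATAA and TGATAA and the AP-1 motif TGACTCA with its reverse complement, had no match in either window. The windows were 57.3% G and C in ETV1 and 69% in ETV6, against a median of 58.7%. The ERG window (1 core) is not shown, since ERG had no listed promoter region, and FLI1 had no match in the table. The windows and the deposited regions are on different builds, so their overlap was not established.

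The ETV1 locus gave the largest set. The ETV1 promoter region (chromosome 7, 14030869 to 14031269, coordinates as deposited and read as hg19 throughout) covers the start of the deposited ETV1 transcript and had 109 mean normalised reads in shPHF19 cells, against 43.7 in Control cells. The authors' log2 fold for it was 1.19, with an FDR of 1.44e-06, the smallest of the 19. It was the most accessible of the 19 regions in both groups, and its Control mean was higher than in 93.0% of all increased regions. The other 9 ETV1 regions had Control means of only 1 to 7.72 reads and shPHF19 means of 6.35 to 25.3 reads.

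The 2 largest ETV1 folds lay upstream of the gene. A region 79.6 kb upstream (chromosome 7, 14110609 to 14111009) had 20.2 reads in shPHF19 cells and 3.56 in Control cells. Its log2 fold of 1.73 (FDR 0.000119689) ranked 71 among the 8615 increased regions. A second region, 592 bp away on the side of the gene (14109616 to 14110016), had 10.4 reads in shPHF19 cells and 2.58 in Control cells, with a log2 fold of 1.10.

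The next fold in size, 1.62 (FDR 0.000228794), lay 164 kb upstream at 14195181 to 14195581. It had 20.5 reads in shPHF19 cells and 3.98 in Control cells. By the deposited annotation it lies in intron 24 of 24 of DGKB, a diacylglycerol kinase gene that is the upstream neighbour of ETV1. A region 279 kb upstream (14309758 to 14310158), in intron 22 of 24 of DGKB, had 11.6 reads in shPHF19 cells and 2.43 in Control cells, with a log2 fold of 1.21. Both are counted for ETV1 only because its start is the nearest, and which gene they act on was not tested.

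Downstream of the ETV1 start, 1 region lay in an exon and 4 lay beyond the gene. Their distances are given from that same start to the centre of the region, although the deposited annotation counts them from a second ETV1 start 5.905 kb farther downstream. The exon region (exon 6 of 10, 13950783 to 13951183, 80.1 kb from the start) had 14.4 reads in shPHF19 cells and 4.05 in Control cells, with a log2 fold of 1.21 and an FDR of 0.007047679. The intergenic region 141 kb downstream (13889726 to 13890126) had 25.3 reads in shPHF19 cells and 7.72 in Control cells, with a log2 fold of 1.30 and an FDR of 0.001215708. Farther out, the regions at 310.1 kb (13720721 to 13721121), 451 kb (13580127 to 13580527) and 494 kb (13536604 to 13537004) had log2 folds of 0.96, 1.23 and 1.09. Their means were 6.35, 8.34 and 11.7 reads in shPHF19 cells, against 1, 1 and 3.15 reads in Control cells. The value of 1 is the floor of the deposited log2 means, and the 2 regions at the floor have the lowest shPHF19 means of the 19.

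**Figure D1:**
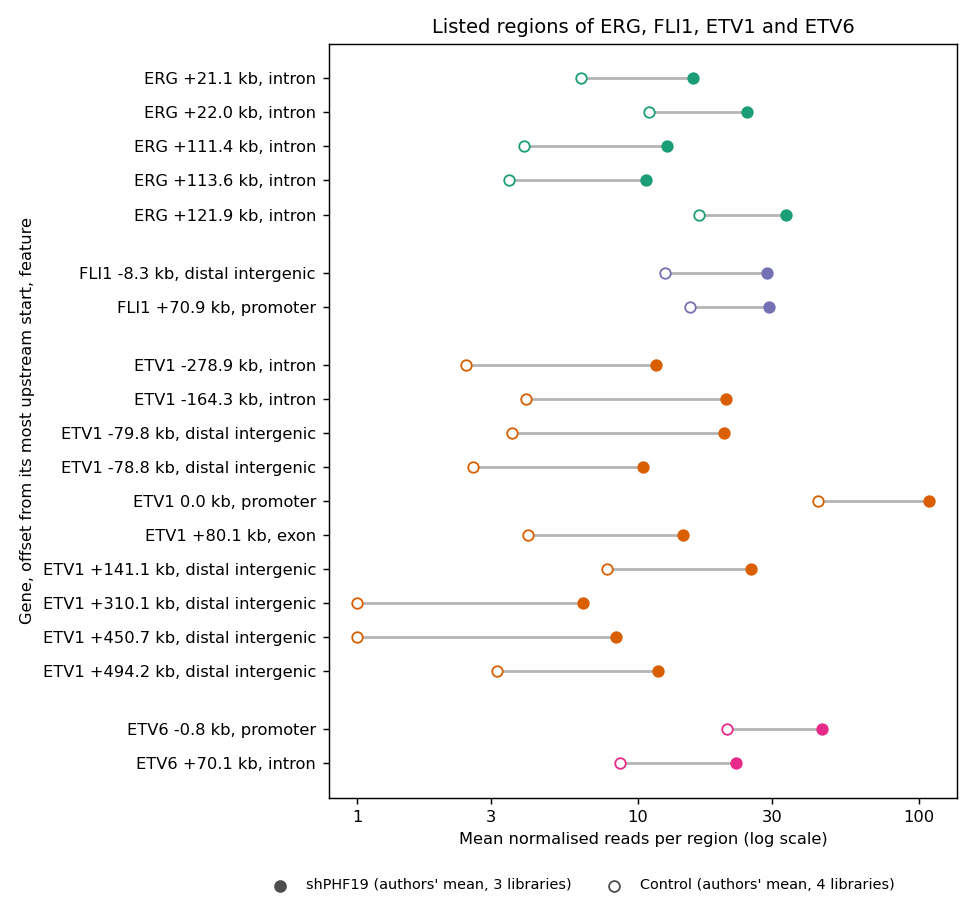
Mean normalised reads per region (x axis, log scale) for the 19 regions, ordered within each gene by offset from its most upstream deposited start; filled points are shPHF19 means of 3 libraries and open points Control means of 4, with no error because the deposited means carry none. The ETV1 promoter region, with 109 and 43.7 reads, stands to the right of the other ETV1 regions, of which 2 have Control means at the floor of 1 read.

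The 10 ETV1 regions span 774 kb (13536604 to 14310158), and no listed region within that span was assigned to another gene. Each region takes the symbol of its nearest start, so regions in between go to ETV1 unless another gene starts there. A further region, in an intron of DGKB and assigned to it, lay 760 kb upstream of the ETV1 start, with a log2 fold of 1.44. Only 1 of 5776 gene symbols with an increased region, LINC00290, had more increased regions than ETV1, and 9 symbols including ETV1 had 10. These counts are not scaled to the length of sequence nearest each gene. ETV1 lies on chromosome 7, which had 111 increased regions per 100 protein-coding genes, against 43.0 over all chromosomes. On chromosome 7, 51.5% of protein-coding genes had an increased region, against 25.2% on all chromosomes, and the median log2 fold of increased regions was 1.05 there, against 0.97 on all. The part that chromosome 7 as a whole plays in the ETV1 count was not tested.

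ERG had 5 regions (chromosome 21), all in its introns and none at a promoter. A pair in intron 3 of 11 lay 406 bp apart, 21.8 and 20.9 kb downstream of the upstream start. The first (39848273 to 39848673) had 24.4 reads in shPHF19 cells and 11.0 in Control cells, with a log2 fold of 0.89. The second (39849080 to 39849480) had 15.7 reads in shPHF19 cells and 6.26 in Control cells, with a log2 fold of 0.91. The remaining 3 were all in the last intron, 11 of 11, 16.4 to 26.9 kb downstream of the start of a shorter ERG transcript. Measured from the upstream start, the centres of these 3 lay 111 to 122 kb downstream.

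Of these 3 ERG regions, that at 39748296 to 39748696 was the most accessible, with 33.7 reads in shPHF19 cells and 16.5 in Control cells and a log2 fold of 0.82. That at 39758870 to 39759270 had 12.7 reads in shPHF19 cells and 3.93 in Control cells, and its log2 fold of 1.05 was the largest at ERG. That at 39756635 to 39757035 had 10.6 reads in shPHF19 cells and 3.47 in Control cells, with a log2 fold of 0.92 and an FDR of 0.047115093. The last value is the weakest of the 19 and lies just inside the largest FDR listed anywhere, 0.05. Regions just outside that limit were not analysed here. The smallest FDR at ERG was 0.018598868, so no ERG region passed an FDR of 0.01.

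FLI1 (chromosome 11) had 2 assigned regions with nearly the same accessibility. One lay 8.11 kb upstream of the most upstream deposited start (128547919 to 128548319) and had 28.9 reads in shPHF19 cells and 12.5 in Control cells, with a log2 fold of 0.98 and an FDR of 0.00746215. The other (128627126 to 128627526) is a promoter region of a second, internal FLI1 start 71.6 kb farther downstream. It had 29.3 reads in shPHF19 cells and 15.3 in Control cells, and its log2 fold of 0.77 (FDR 0.03055203) was the smallest of the 19.

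Between these 2 regions lay 4 more increased regions that the nearest-gene rule gives to SENCR, a long noncoding RNA transcribed antisense from the 5′ end of FLI1. By the deposited annotation 3 of them lie in intron 1 of 6 of FLI1 itself, with log2 folds of 1.13, 1.22 and 1.25. They had 10.1, 13.9 and 14.6 reads in shPHF19 cells, against 2.396, 3.33 and 3.58 in Control cells. The fourth, at the SENCR promoter (128565765 to 128566165), had 42.8 reads in shPHF19 cells and 20.6 in Control cells, with a log2 fold of 0.91. It also lies within the longer deposited FLI1 transcript (128556430 to 128683162), but its annotation is a promoter, so it is left out of the next count. Counting the intronic ones, FLI1 would have 5 regions with a median log2 fold of 1.13, against 0.87 for the 2 assigned to it. This count was chosen after the values were seen. It can only add regions, and it added none for ERG, ETV1 and ETV6. By the annotation, only 1 of the 10 ETV1 regions lies in an intron or exon of ETV1, and 2 lie in another gene.

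ETV6 (chromosome 12) had 1 region at its promoter and 1 inside the gene. The promoter region (11801467 to 11802560) ends 228 bp before the start and was the only one of the 19 wider than 401 bp, at 1094 bp. It had 45.1 reads in shPHF19 cells and 20.8 in Control cells, with a log2 fold of 0.94 and an FDR of 0.003419726. The region in intron 1 of 7 (11872678 to 11873078, 69.9 kb from the start) had 22.4 reads in shPHF19 cells and 8.65 in Control cells, with a log2 fold of 1.01 and an FDR of 0.010989421. No other listed region lay within 1 Mb of the ETV6 start.

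**Figure D2:**
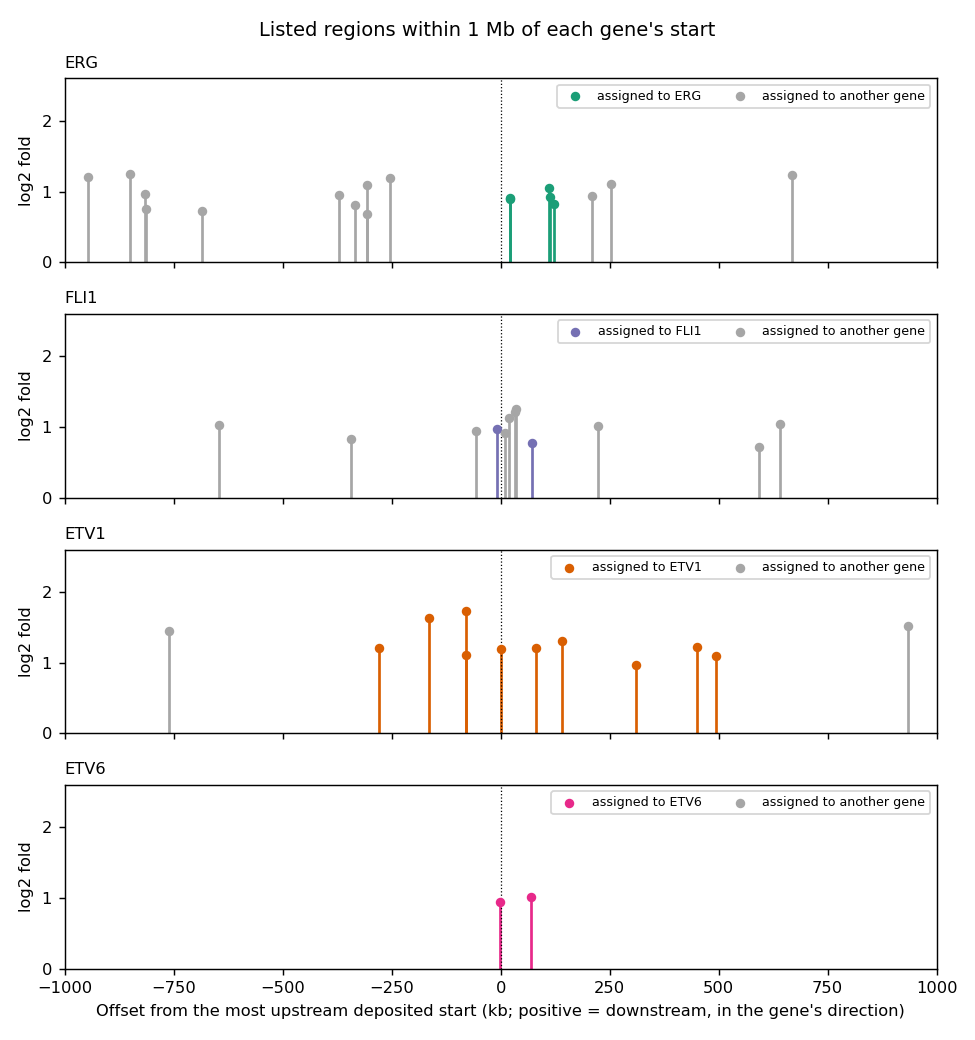
Authors' log2 fold (y axis, shPHF19 over Control) of every listed region within 1 Mb of each gene's most upstream deposited start, by offset in kb in the direction of the gene (x axis); coloured stems are assigned to the named gene and grey stems to others. ETV1 regions run from 279 kb upstream to 494 kb downstream with no grey stem among them, FLI1 regions flank 4 grey ones assigned to SENCR, and ETV6 has 2 regions and no neighbour.

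Set side by side, the 10 ETV1 regions had a larger median fold and a lower median Control mean than the regions of the other 3 genes, although the ranges overlapped and the ETV1 promoter had the highest Control mean of the 19. The median log2 fold was 1.21 at ETV1, 0.91 at ERG, 0.87 at FLI1 and 0.98 at ETV6, and over all increased regions it was 0.97 (interquartile range 0.84 to 1.12). A listed log2 fold of at least 1 was reached by 9 of 10 ETV1 regions and by 2 of the 9 regions of ERG, FLI1 and ETV6. It was reached by 43.4% of all increased regions, 56.0% of those outside promoters and 58.4% of those on chromosome 7. Among increased regions with under 5 Control reads the share was 70.5%. The listed folds lie nearer 0 than the differences of the log2 group means. Those differences were 0.94 to 1.69 over the 9 regions and 1.31 to 3.06 at ETV1. Median Control means were 3.36 reads at ETV1 and 11.0 reads over the regions of ERG, FLI1 and ETV6 together, and 11.2 reads over all increased regions. The median was 5.41 reads over increased regions outside promoters and 4.75 reads over those beyond 100 kb of the start. Regions with fewer Control reads had larger listed folds. Among increased regions with under 5 Control reads the smallest listed log2 fold was 0.86 and the median 1.08, and among those with over 30 Control reads they were 0.59 and 0.79. The smallest over all increased regions was also 0.59, and whether the lists carry a fold limit besides the FDR was not tested. The ETV1 promoter, with a log2 fold of 1.19 at 43.7 Control reads, is among the 16.1% of regions with over 30 Control reads that had a log2 fold of at least 1.

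Most of the 19 regions lay outside promoters. Promoters, within 3 kb of a start, held 3 of them (15.8%), against 50.1% of all increased regions. Introns held 8 (42.1%, against 20.5%), intergenic sequence 7 (36.8%, against 26.8%) and exons 1. The median distance to the start used in the annotation was 69.9 kb over the 19, and over all increased regions it was 2.90 kb. It was 150 kb at ETV1 and 18.6 kb over the 9 regions of ERG, FLI1 and ETV6, with 4.30 kb at FLI1 alone. The 6 regions beyond 100 kb of that start were all ETV1 regions, where they made up 60% of the set, against 16.2% of all increased regions. From the most upstream start of ERG, its 3 regions in the last intron also lay beyond 100 kb, at 111 to 122 kb. Regions of 1 gene share their surroundings and are not independent, so no test is attached to these shares.

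**Figure D3:**
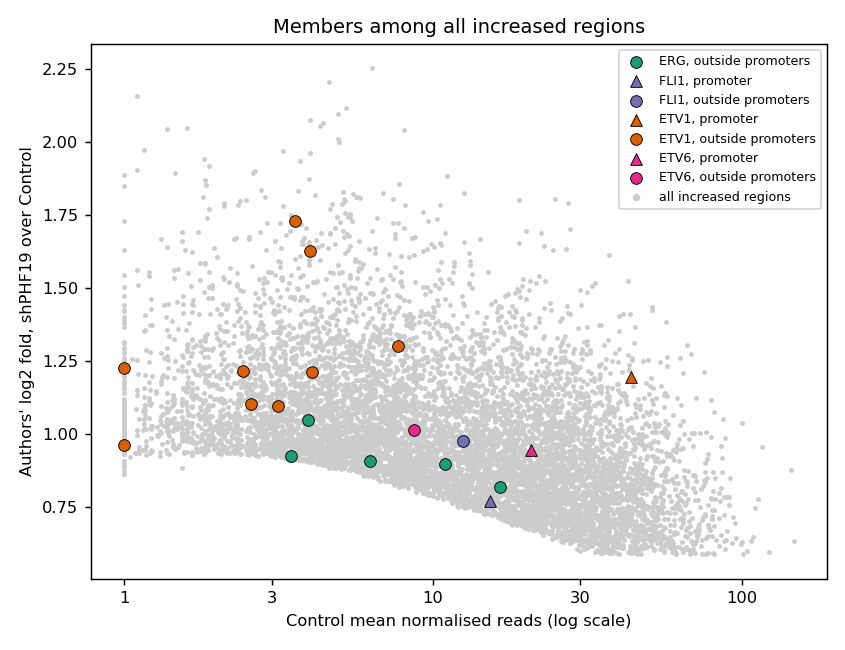
Authors' log2 fold (y axis) against the Control mean in normalised reads (x axis, log scale) for all 8615 increased regions (grey) and the 19 regions (coloured by gene; triangles are promoters). ERG and FLI1 regions lie at log2 folds of 0.77 to 1.05, on both sides of the median of all increased regions (0.97), and ETV1 regions lie from 0.96 to 1.73.

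Among the 28 human ETS family genes, 13 had an increased region (46.4%) and none a decreased one, against 25.2% of all protein-coding genes with an increased region and 0.818% with a decreased one. At promoters the number was 7 of 28 (25%), against 17.5% of protein-coding genes. The family was taken up with the results for its 4 named genes known. Without them 9 of 24 had an increased region (37.5%), and 4 of 24 had one at a promoter (16.7%), which is near the share of all protein-coding genes. ERG and FLI1 each have a family member as a neighbour. ETS2, a proto-oncogene product activated by ERK, had 4 regions 307 to 371 kb upstream of the ERG start, 2 of them at its promoter, with log2 folds of 0.68 to 1.10. ETS1, a factor of lymphoid and endothelial cells, had 3 intergenic regions upstream of FLI1, with log2 folds of 0.83 to 1.03.

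The largest folds in the rest of the family were at ELK3, a ternary complex factor and repressor (log2 fold 1.37, 32.8 reads in shPHF19 cells and 9.73 in Control cells, 17.0 kb upstream), and at SPIC, a relative of PU.1 that specifies splenic red pulp macrophages (1.23, intergenic). The promoter of GABPA, an ETS activator of mitochondrial and housekeeping genes, had 63.1 reads in shPHF19 cells and 23.6 in Control cells, with a log2 fold of 1.21 and an FDR of 0.000104934. ETV5, a PEA3 group relative of ETV1, had 2 regions 53.1 and 76.2 kb upstream of its start, with log2 folds of 1.09 and 0.89, both in introns of the neighbouring gene DGKG. ERF, an ERK-regulated repressor, had 2 promoter regions (0.77 and 0.85), and ELF1 and ELF2 had 1 region each (0.99 and 1.01). The 15 family genes without a listed region include SPI1, which encodes PU.1, and ETV4, the third PEA3 gene, and the lists do not say whether these changed.

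**Figure D4:**
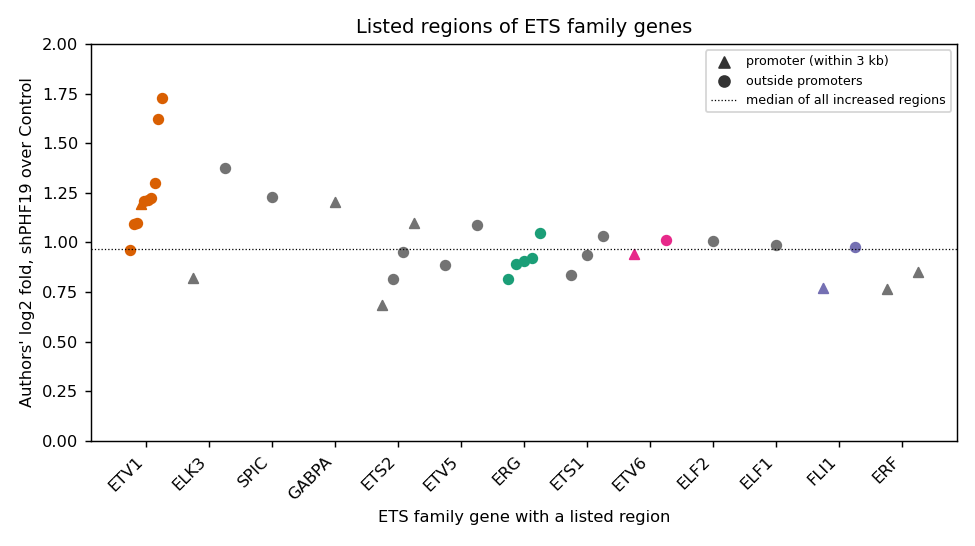
Authors' log2 fold (y axis) of each listed region of the 13 ETS family genes that have one (x axis, ordered by their largest fold); triangles are promoter regions, circles others, and the dotted line is the median of all increased regions, 0.97. ETV1 has the most regions, 10, and the largest fold, 1.73.

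Of the 5 partners of ERG and FLI1 in blood stem cells, RUNX1, LYL1 and LMO2 had increased regions (60%, against 25.2% of all protein-coding genes) and GATA2 and TAL1 had no listed region. At promoters the number was 2 of 5, against 17.5%. RUNX1 had 5, with log2 folds of 0.92 to 1.63. LYL1, a basic helix-loop-helix factor, had 2 promoter regions with high accessibility and small folds (0.59 and 0.74), the larger with 66.8 reads in shPHF19 cells and 37.5 in Control cells. LMO2, a bridging protein of the complex, had 1 intergenic region (0.86).

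Of 16 genes that regulate PEA3 factors or dampen ERK signalling, 12 had an increased region and none a decreased one (75%, against 25.2% of all protein-coding genes), 8 of them at the promoter (50%, against 17.5%). The promoter of DET1, a component of the COP1 ubiquitin ligase complex that targets ETV1 for degradation, had 127 reads in shPHF19 cells and 45.1 in Control cells, with a log2 fold of 1.36 and an FDR of 1.79e-08. The COP1 promoter itself had a log2 fold of 0.77, and that of CIC, a repressor of the PEA3 genes, 0.79; these 2 have smaller folds and were chosen after their values were seen. The feedback inhibitors SPRY4 (1.41, 31.9 kb upstream), SPRY2 (1.14, promoter), SPRY1 (0.94, 89.4 kb downstream) and SPRED2 (0.92, promoter) had listed regions as well. So did the phosphatases DUSP5 (1.23, intron, 2.86 Control reads) and DUSP6 (1.07, 5.67 kb downstream). The COP1 adaptors TRIB2 (0.92, 260 kb upstream) and TRIB1 (0.88, promoter) also had listed regions. ATXN1, ATXN1L, SPRED1 and DUSP4 had no listed region. KIT, the receptor upstream of ETV1 in stromal tumours, had 2 with log2 folds of 0.74 and 0.84. SIN3A, a corepressor that acts with ETV6, had 2 increased promoter regions (0.71 and 0.76). These lists were drawn up with earlier results of the data known and the genes were not tested as sets.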

How the data were processed

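Both deposited lists were pooled and rows whose symbol is ERG, FLI1, ETV1 or ETV6 were kept. The deposited values, computed by the authors, are log2 mean normalised read counts over all libraries and per group, a log2 fold change, and a p-value with its FDR, per the file headers. Per the submitters' processing notes the tools included MACS2 2.2.6 and Bowtie2 2.4.1, besides deepTools 1.5.12 and also Picard 2.2.4. Not given in the sources used here are the comparison tool, the normalisation and any transposase shift of reads. Read means are 2 to the power of the deposited log2 means. The knockdown column was identified by its weight in the overall mean (0.429, that is 3 of 7 libraries). The deposited log2 fold was nearer 0 than the difference of the log2 group means in 100% of regions.

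The number of tested regions, 52675, is the whole number that brought the FDR-implied ranks of the decreased regions closest to whole numbers, by their median. The approximate estimate that set the search range was tested on simulated data, and the search itself was not. The number 52675 implies that 110 further regions passed, which were not analysed here. Although the processing notes name hg38, none (0) of the 4 genes had the start of the GRCh38.p14 RefSeq table, and coordinates are read as hg19. That table gave gene names and types, and 99.7% of regions matched it by gene ID. Some results on neighbouring and listed genes are not reported here. No test was run, since the regions were listed on the contrast. Members and lists were chosen with earlier results of these data known. All listed regions of the 4 genes are described, up to 10 genes per list by largest absolute fold, and neighbours with 2 or more regions (others named were chosen after seeing values). Tables were handled with pandas 2.3.3 and numpy 2.4.6 under Python 3.11.15, and figures drawn with matplotlib 3.10.9.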

Additional observations from a re-analysis of the deposited data

How the results depend on the processing

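All 19 regions come from the increased list, so their sign is fixed by that choice. Their number was 8 at an FDR of at most 0.01 (0 for ERG), 11 at a log2 fold of at least 1, and 11 with an overall mean of at least 10 reads. Within 100 kb of the start used in the annotation it was 13, and with regions closer than 1 kb merged 17. With regions annotated to introns or exons of the 4 genes added it was 22, which leaves out the SENCR promoter region inside FLI1. The median log2 fold of 1.05 became 1.69 from the difference of the group means, 1.22 at an FDR of at most 0.01 and 0.98 within 100 kb. It was 1.10 with the intron and exon regions added (chosen after seeing the data). Of the 28 ETS genes, 7 in place of 13 had an increased region at promoters. Only ETV1 lost regions at the 100 kb limit from the start used in the annotation, with 4 of 10 left. No paired analysis was possible because the lists hold group means only, and no replicate could be left out for the same reason. The depth is unknown, and 13 of the 19 regions had under 10 Control reads.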

Other observations

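The neighbourhoods of ERG and FLI1 held increased regions of further genes. Downstream of ERG, the potassium channel gene KCNJ15 had 2 intronic regions (log2 folds 0.93 and 1.10) and KCNJ6 had 1 (1.23), with 12.6 reads in shPHF19 cells and 2.92 in Control cells. Upstream of ERG, BRWD1, a bromodomain protein gene, had 2 promoter regions (0.75 and 0.96), and the promoter of HMGN1, a nucleosome-binding protein gene, had a log2 fold of 1.25 (FDR 1.39e-06), smaller in FDR than any ERG region. In all, 18 regions were listed within 1 Mb of the ERG start and 12 within 1 Mb of the FLI1 start, none of them decreased. Few decreased regions were listed on either chromosome, as over all chromosomes (8615 increased and 200 decreased). Chromosome 21 (ERG) had 174 increased and 1 decreased, and chromosome 11 (FLI1) had 505 and 13. Increased regions per 100 protein-coding genes were 72.8 on chromosome 21 and 38.8 on chromosome 11, against 43.0 over all chromosomes. HMGN1 and KCNJ6 have 1 region each and were chosen after their values were seen.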
